A study of Mus musculus with 6 samples.

Results

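The 39 type I interferon-stimulated genes described here are a fixed list of antiviral effectors, nucleic acid sensors and transcription factors, and they were found on the array by matching the RefSeq accession of each non-control probe to their mouse gene symbols. A probe was matched for 37 of the 39 genes, 53 probes in all, and none for Mx1 and Mx2, the dynamin-like GTPases that block viral nucleocapsids. Of these 37 genes, 28 were tested among 27916 features in all. The other 9 genes had too few arrays on which the spot was free of an outlier mark, and their values are given apart. All 53 probes were well above background on all 6 arrays, so the filter on dim probes removed no gene of the list.

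Type I interferons bind a heterodimeric receptor whose kinases set off a phosphorylation cascade that activates the transcription complex ISGF3, of which STAT2 and IRF9 are subunits. ISGF3 enters the nucleus and binds the interferon-stimulated response element (ISRE) of its target genes. In the gut these genes form part of the epithelium's defence against viruses, and in epithelial cells type III interferons, which signal through another receptor to the same complex, switch on much the same set.

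The samples came from the colonic epithelium of 6 male mice, of which 3 were wild-type and 3 carried the miR-31 knockout, and the RNA of each mouse was read on its own one-colour array. The epithelium was collected by flow separation, and the strain, the age, the sort gate and the way the knockout was made are not given in the sources used here. By the animal numbers in the titles, wild-type 1, wild-type 2, knockout 1 and knockout 2 differ in the last digit alone, and wild-type 3 and knockout 3 have other numbers. The microRNA that the genotype label names is shown here to identify it, with its seed, bases 2 to 8, in capitals, as RefSeq gives it on GRCm38.p6 (chr4:88910614-88910635, minus strand).
miR-31-5p: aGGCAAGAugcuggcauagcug
No probe measured the microRNA, so the deletion itself was not checked on these arrays.

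All arrays were on 1 slide. Wild-type arrays lay in row 2 and knockout arrays in row 1, so genotype and slide row cannot be told apart. Between 66.6% and 75.6% of probes per array were well above background, and the 75th percentile of signal lay between 3005 and 3539 intensity units. The share of non-control spots that carried an outlier mark was between 4.95% (wild-type 3) and 17.3% (wild-type 1). The labelled tissue matched its defining marker: Epcam, the epithelial cell adhesion molecule, was well above background on all 6 arrays. Values below are log2 intensity minus the array's 75th percentile, so 0 is the brightness of the array's spot at that percentile. Values of different genes come from different probes and were not set against each other.

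The promoters are shown first because the ISRE is the sequence through which ISGF3 is known to act. In RefSeq windows on GRCm38.p6 from 250 bases before to 50 bases after a gene's start, 29 of the 39 genes had an entry. The ISRE core was searched as GAAA, any 2 bases and GAAA, and as its complement TTTC, any 2 bases and TTTC, which covers both strands. It was found in 15 of the 29 genes (51.7%), against 3.99% of all 27025 genes with a window of that length. The 15 genes were Bst2, Ddx58, Eif2ak2, Ifih1, Ifit1, Ifit3, Ifit3b, Ifitm3, Isg15, Oas1a, Oas1g, Oas3, Rsad2, Stat2 and Trim30a. The palindrome TTCNNNGAA, the core of a STAT dimer site, which reads the same on both strands, was found in 7 of the 29 genes (24.1%), against 9.55% of all genes. A match is a description of the letters and no evidence of binding. The windows of 5 genes whose values are described below are printed 5′ to 3′ on the gene's strand, with ISRE core matches in capitals. Oas3, Isg15 and Ifit3b had the largest log2 differences among tested genes with a match on at least 5 unmarked arrays, and Oas1a and Ifitm3 were the genes whose groups did not overlap.
Oas3 (chr5:120777610-120777909, minus strand): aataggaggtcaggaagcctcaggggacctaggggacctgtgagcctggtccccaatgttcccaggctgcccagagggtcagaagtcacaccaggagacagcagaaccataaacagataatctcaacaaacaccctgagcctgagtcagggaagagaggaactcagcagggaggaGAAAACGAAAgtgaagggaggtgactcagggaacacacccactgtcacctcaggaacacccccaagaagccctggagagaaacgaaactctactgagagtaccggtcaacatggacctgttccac
Isg15 (chr4:156200769-156201068, minus strand): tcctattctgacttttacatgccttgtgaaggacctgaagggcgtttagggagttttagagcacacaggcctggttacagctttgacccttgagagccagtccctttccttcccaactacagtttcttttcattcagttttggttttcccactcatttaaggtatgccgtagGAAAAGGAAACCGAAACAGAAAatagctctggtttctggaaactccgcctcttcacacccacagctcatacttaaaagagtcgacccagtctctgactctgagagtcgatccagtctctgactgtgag
Ifit3b (chr19:34607707-34608006, plus strand): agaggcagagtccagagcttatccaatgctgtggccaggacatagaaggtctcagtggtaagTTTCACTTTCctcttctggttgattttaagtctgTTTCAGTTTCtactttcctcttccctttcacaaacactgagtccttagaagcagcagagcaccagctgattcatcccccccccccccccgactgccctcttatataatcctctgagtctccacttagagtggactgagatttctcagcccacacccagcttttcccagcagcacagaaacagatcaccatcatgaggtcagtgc
Oas1a (chr5:120907476-120907775, minus strand): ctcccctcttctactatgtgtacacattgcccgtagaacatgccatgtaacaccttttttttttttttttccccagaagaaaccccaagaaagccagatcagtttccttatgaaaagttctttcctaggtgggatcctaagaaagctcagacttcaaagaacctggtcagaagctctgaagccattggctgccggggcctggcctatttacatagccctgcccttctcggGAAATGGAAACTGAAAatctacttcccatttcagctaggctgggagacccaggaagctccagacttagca
Ifitm3 (chr7:141010695-141010994, minus strand): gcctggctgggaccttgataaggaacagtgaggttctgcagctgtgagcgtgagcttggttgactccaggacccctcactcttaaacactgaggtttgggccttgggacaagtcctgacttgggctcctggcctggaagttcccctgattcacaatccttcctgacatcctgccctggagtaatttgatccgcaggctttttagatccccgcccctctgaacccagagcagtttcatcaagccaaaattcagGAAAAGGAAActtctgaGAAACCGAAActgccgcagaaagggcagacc
In the Isg15 window 3 matches overlap in 1 run, and their first bases lie at -78 to -66 from the start. In the Ifitm3 window both matches lie after the start. The window of Ifit2 held no match, although its log2 difference was among the largest. The 9 tested genes with a match had a median log2 difference of 0.51 between genotypes, and the 11 tested genes with a window but no match had 0.56.

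In the comparison of knockout with wild-type, which asks what the loss of miR-31 does to expression in this epithelium, the interferon-stimulated genes lay higher on the knockout arrays by their means, but none passed the test. On the arrays of wild-type 1 and wild-type 2 most of them were far lower than on the other 4, while wild-type 3 had values like those of the knockout mice. The log2 difference, knockout minus wild-type, was above 0 for 26 of the 28 tested genes, where 38.5% of all features lay above 0, and its median was 0.56 (quartiles 0.33 and 1.06) against -0.06 over all features. In limma with Benjamini-Hochberg adjustment over all 27916 features, 0 of the 28 genes reached an adjusted p under 0.05 (0.147% of all features did so in the higher direction), and their smallest adjusted p was 0.415. At an unadjusted p under 0.05, 1 gene, Oas3, was higher in the knockout (3.18% of all features). The 3 knockout arrays all lay above the 3 wild-type arrays for 2 genes, Ifitm3 and Oas1a (5.56% of all features). Of the arrays left out in turn, wild-type 3 moved the unadjusted and the no-overlap counts most. Without it, 24 of 26 genes had an unadjusted p under 0.05 (4.74% of features in that fit) and 25 did not overlap (10.1%). The adjusted count remained 0 (0.14% of features), the smallest adjusted p in limma being 0.0514. Without wild-type 1, without wild-type 2, without knockout 1 or without knockout 3, 0 genes had an unadjusted p under 0.05. The median was 0.93 without wild-type 3 and 0.30 without wild-type 2. The samples are bulk RNA, so a different share of cells that express a gene and a different amount of its RNA per cell cannot be told apart.

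**Figure D1:**
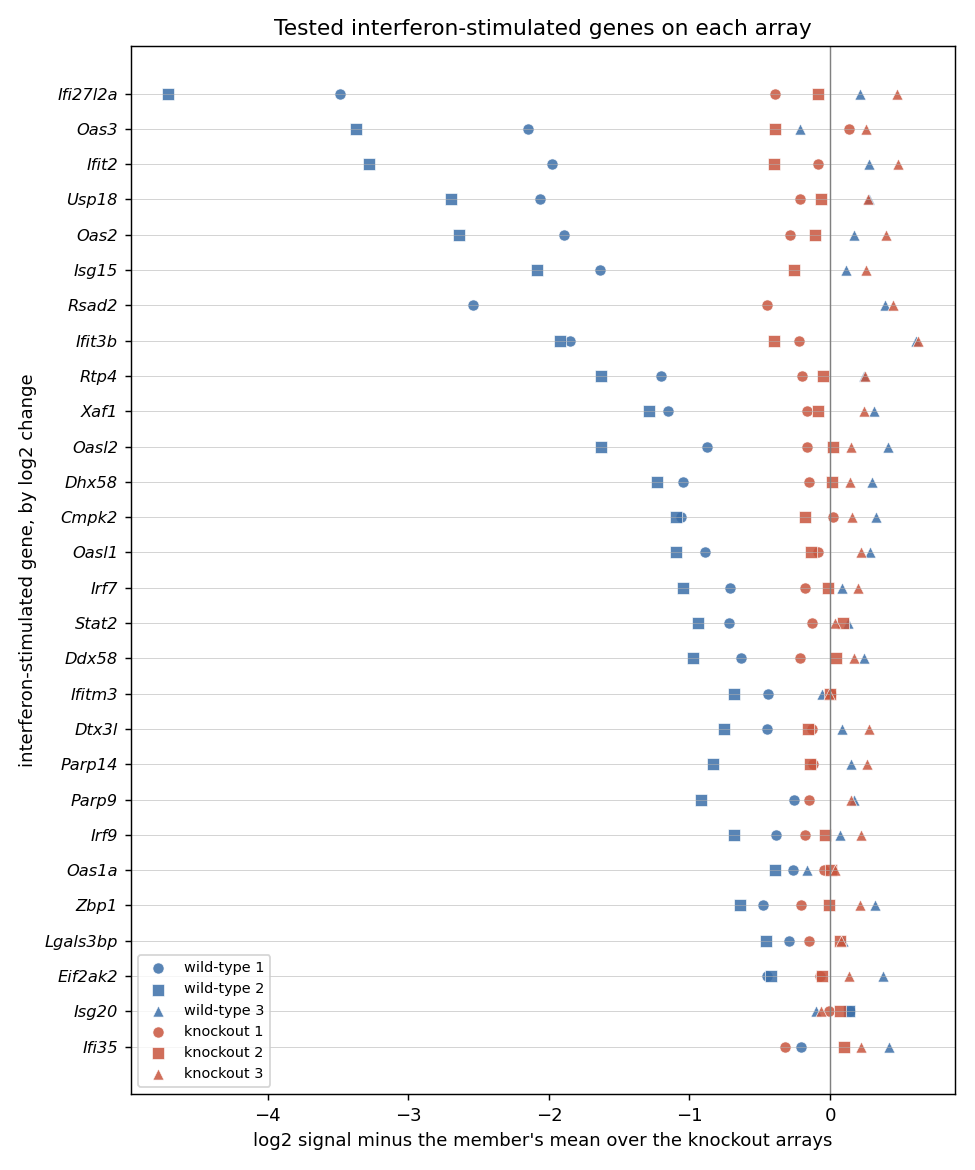
Values of the 28 tested interferon-stimulated genes on each array, as log2 signal minus the gene's mean over the knockout arrays (x axis), with genes ordered by their log2 difference (y axis). Blue symbols are wild-type and red symbols knockout mice; the blue circles and squares of wild-type 1 and 2 lie to the left for most genes, and the blue triangles of wild-type 3 lie among the red symbols.

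Among the IFIT genes, which lie on chromosome 19 and encode tetratricopeptide proteins that restrain viral RNA and its translation, both tested members had positive differences. Ifit2 had values of -2.28, -3.58 and -0.02 in wild-type 1 to 3 and -0.38, -0.70 and 0.19 in knockout 1 to 3. Wild-type 1 and 2 were low, wild-type 3 lay above knockout 1 and knockout 2, and the groups overlapped. The log2 difference of Ifit2 was 1.66 ± 0.82 (SE), with an adjusted p of 0.527 in limma. Ifit3b, a near-identical copy of Ifit3 whose probe may share signal with it, had -1.52, -1.59 and 0.95 in the wild-type mice and 0.11, -0.07 and 0.96 in the knockout mice. Its difference was 1.05 ± 0.68, and wild-type 3 was level with knockout 3. Both printed ISRE cores of Ifit3b stand upstream of its start.

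The 5 tested oligoadenylate synthetase genes, all on chromosome 5, had differences between 0.27 and 1.91. These proteins sense double-stranded RNA, and the catalytic ones make the short oligoadenylates that switch on RNase L. Oas3 had -2.41, -3.64 and -0.48 in wild-type 1 to 3 and -0.13, -0.65 and -0.01 in knockout 1 to 3. Its groups overlapped only because wild-type 3 lay above knockout 2. The log2 difference of Oas3 was 1.91 ± 0.72, 3.77-fold, with an unadjusted p of 0.0327 and an adjusted p of 0.415 in limma. Oas2 had -2.38, -3.12 and -0.32 in the wild-type mice and -0.77, -0.59 and -0.09 in the knockout mice. Wild-type 3 exceeded knockout 1 and knockout 2 for Oas2, and its difference was 1.45 ± 0.66 with an adjusted p of 0.498 in limma. Oas1a had a far smaller range: 2.35, 2.23 and 2.45 in the wild-type mice and 2.58, 2.63 and 2.65 in the knockout mice. All 3 knockout arrays lay above the wild-type arrays, by a mean of 0.27 ± 0.12 (adjusted p 0.466 in limma). Its probe may share signal with the close paralog Oas1g. Oasl2 (0.70 ± 0.47) and Oasl1 (0.57 ± 0.35), members of the family that resemble the synthetases and carry ubiquitin-like domains, had wild-type 3 as their highest array.

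The ISG15 system attaches the ubiquitin-like protein ISG15 to other proteins and, through the protease USP18, removes it. USP18 is also a brake on signalling at the interferon receptor. Usp18 had -1.03, -1.66 and 1.31 in wild-type 1 to 3 and 0.82, 0.97 and 1.30 in knockout 1 to 3. Wild-type 3 was the highest array of all, beside knockout 3. The log2 difference of Usp18 was 1.49 ± 0.70 (adjusted p 0.507 in limma). Isg15 had 1.10, 0.65 and 2.85 in the wild-type mice and, with knockout 1 left out because its spot was marked, 2.48 and 2.99 in knockout 2 and 3. The wild-type 3 value stood between the 2 knockout values, and the difference was 1.20 ± 0.64 (adjusted p 0.565 in limma).

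The 3 tested transcription factor genes had differences between 0.33 and 0.56. Irf7, the factor that amplifies interferon production, had 2.55, 2.22 and 3.35 in wild-type 1 to 3 and 3.08, 3.24 and 3.46 in knockout 1 to 3. Wild-type 3 was second to knockout 3. The difference of Irf7 was 0.56 ± 0.29 (adjusted p 0.542 in limma). Stat2 and Irf9, which encode subunits of ISGF3, had differences of 0.51 ± 0.27 and 0.33 ± 0.21, and for both genes wild-type 1 and 2 were the lowest arrays.

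All 4 tested sensors of viral nucleic acids had positive differences, between 0.16 and 0.66. Dhx58, which encodes LGP2, a regulator of the RNA helicase sensors, had -0.12, -0.30 and 1.22 in wild-type 1 to 3 and 0.77, 0.94 and 1.06 in knockout 1 to 3. Its highest array was wild-type 3, and its difference was 0.66 ± 0.38 (adjusted p 0.591 in limma). Ddx58, the RNA helicase sensor RIG-I, had 0.45 ± 0.31, Zbp1, a sensor of left-handed nucleic acids, 0.26 ± 0.26, and Eif2ak2, the kinase PKR, 0.16 ± 0.24. Wild-type 3 was the highest array for each of these genes.

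Parp9, Parp14 and Dtx3l lie on chromosome 16, where Parp9 and Dtx3l encode partners in a complex of an ADP-ribosyltransferase and a ubiquitin ligase. Dtx3l had 0.80, 0.50 and 1.34 in wild-type 1 to 3 and 1.13, 1.10 and 1.53 in knockout 1 to 3. Wild-type 3 lay between the knockout arrays, and the difference was 0.37 ± 0.24 (adjusted p 0.623 in limma). Parp14 had 0.34 ± 0.31 over 2 wild-type and 3 knockout arrays and Parp9 0.33 ± 0.33 over 3 and 2. Averaging the probes of Parp14 gave 1.06, but wild-type 1 then held the dimmer probe alone, and each probe by itself gave 0.34.

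Ifitm3, a membrane protein that stops enveloped viruses from fusing, had 0.79, 0.54 and 1.17 in wild-type 1 to 3 and 1.24, 1.23 and 1.22 in knockout 1 to 3. Its groups did not overlap, but wild-type 3 lay close under the knockout arrays, whose SD was 0.0058. The difference of Ifitm3 was 0.39 ± 0.17 (adjusted p 0.477 in limma).

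Of the other effectors, Cmpk2, a mitochondrial nucleotide kinase, had 0.11, 0.07 and 1.49 in wild-type 1 to 3 and 1.18, 0.99 and 1.32 in knockout 1 to 3. Wild-type 3 was its highest array, and the difference was 0.61 ± 0.38 (adjusted p 0.611 in limma). Rsad2, which encodes the antiviral enzyme viperin and lies on chromosome 12 as Cmpk2 does, had 1.07 ± 0.98 over 2 arrays per genotype. Isg20, an exonuclease, went against the rest: it had 1.66, 1.66 and 1.42 in wild-type 1 to 3 and 1.51, 1.59 and 1.46 in knockout 1 to 3. For Isg20 wild-type 3 was the lowest array and wild-type 1 the highest, and the difference was -0.06 ± 0.12 (adjusted p 0.903 in limma).

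Ifi27l2a, a small membrane protein gene strongly induced by interferon, had the widest range of the list. Its values were -1.57, -2.79 and 2.13 in wild-type 1 to 3 and 1.52, 1.83 and 2.39 in knockout 1 to 3. Wild-type 3 lay above knockout 1 and knockout 2. The difference was 2.66 ± 1.14, 6.32-fold, with an adjusted p of 0.469 in limma. A second, dimmer probe of Ifi27l2a gave 0.17, and the mean of both probes 1.41, so the size rests on the brighter probe. Rtp4, a chaperone of membrane receptors, had 0.86 ± 0.45, Xaf1, a promoter of apoptosis, 0.71 ± 0.41 (0.39 with normexp background correction and 1.12 with marked spots kept), and Lgals3bp, a secreted glycoprotein, 0.22 ± 0.17. Ifi35 had 1.70 and 2.33 in wild-type 1 and 3, wild-type 2 being left out as marked, and 1.59, 2.01 and 2.13 in knockout 1 to 3. The Ifi35 difference was -0.10 ± 0.26 (adjusted p 0.919 in limma), and it turned to 0.046 with marked spots kept.

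**Figure D2:**
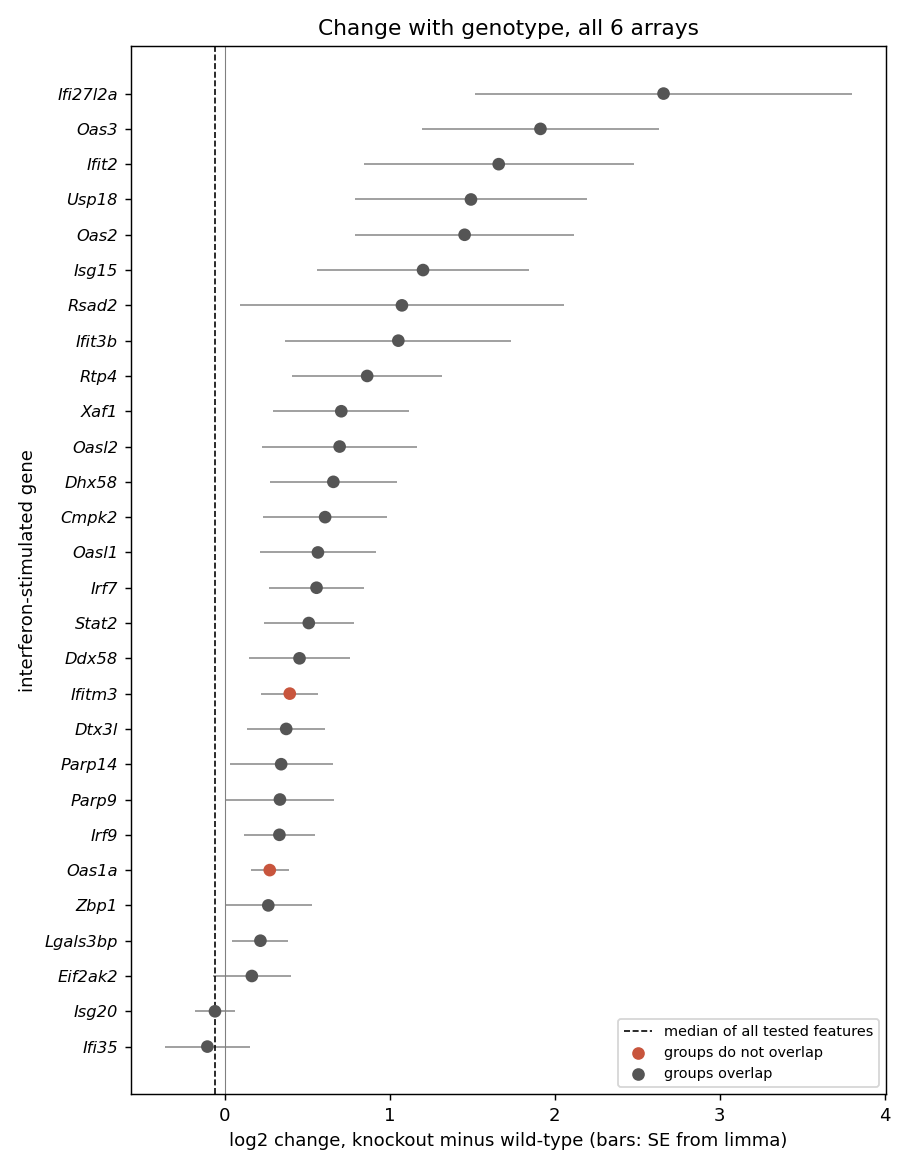
Log2 difference, knockout minus wild-type, of each tested interferon-stimulated gene (points) with the SE from limma (bars) over all 6 arrays; the dashed line is the median of all features, -0.06. Points of 26 genes lie above 0, and the red points mark Ifitm3 and Oas1a, whose groups do not overlap.

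The genes varied more between wild-type than between knockout mice. The SD over wild-type arrays exceeded that over knockout arrays for 28 of 28 genes, where it did so for 48.5% of all features. Its median was 0.72 in the wild-type and 0.21 in the knockout, against 0.18 in each genotype over all features. The wild-type SD of 18 genes was above 0.56, the 95th percentile over all features. It was largest for Ifi27l2a (2.56), Rsad2 (2.07) and Ifit2 (1.80). Oas1a had an SD of 0.11 and Isg20 an SD of 0.14 in the wild-type, below the median of all features.

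**Figure D3:**
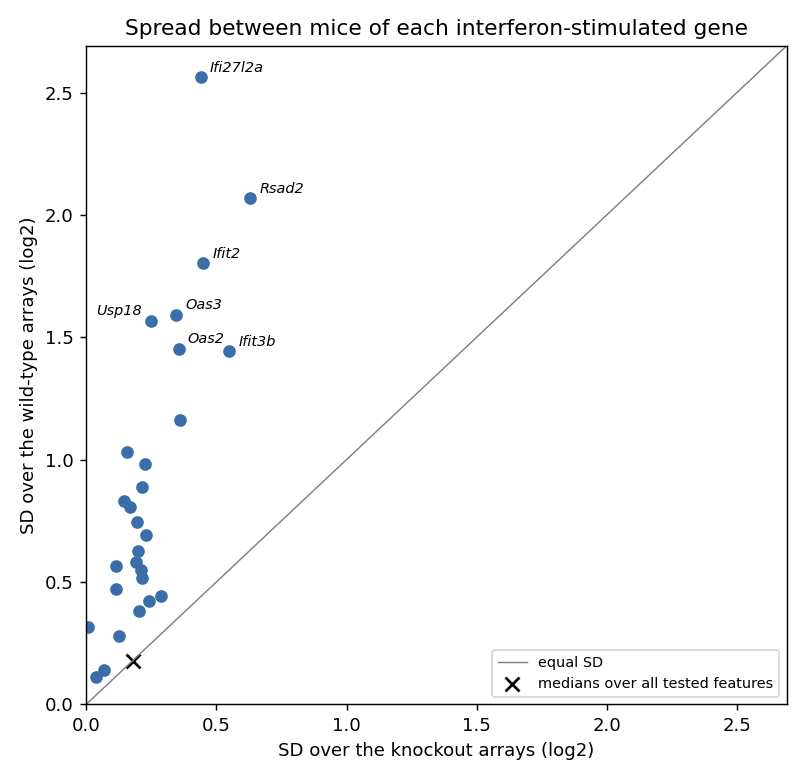
SD between wild-type arrays (y axis, log2) against SD between knockout arrays (x axis, log2) for each tested interferon-stimulated gene; the line marks equal SD and the cross the medians of all features. All 28 points lie above the line, and Ifi27l2a has the largest wild-type SD, 2.56.

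The order of the arrays was nearly the same from gene to gene. Over the 23 genes with an unmarked value on all 6 arrays, wild-type 1 and wild-type 2 were both below the other 4 arrays for 22, Isg20 being the exception, where this held for 6.32% of 24064 features with complete values. Wild-type 2 was the lowest array for 21 genes (9.71% of features). The highest array was wild-type 3 for 11 genes (9.24%) and knockout 3 for 10 (11.5%). Wild-type 3 lay above both knockout 1 and knockout 2 for 19 genes (32.1%). Relative to each gene's knockout mean, the median over the 23 genes was -0.88, -1.09 and 0.24 in wild-type 1 to 3 and -0.15, -0.05 and 0.22 in knockout 1 to 3. Over all features the same medians stayed between -0.03 and 0.12. Genes of 1 array share that mouse, RNA and slide position, so their agreement is no replication.

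Wild-type 3 and knockout 3, the arrays on which the genes were highest, also had the smallest shares of marked spots, 4.95% and 7.44%, where the other 4 had 12.8% to 17.3%. Of the 53 probes of the list, 12, 15 and 1 were marked in wild-type 1 to 3 and 14, 14 and 9 in knockout 1 to 3. With marked spots kept, 35 of 37 genes lay above 0, with a median of 0.61. The part of the marks in the order of the arrays was not otherwise tested.

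The animal numbers place wild-type 1 and 2 and knockout 1 and 2 in a shared run, and leave wild-type 3 and knockout 3 apart. No source used here says that the numbers mark a litter, a cage or a batch. The first 4 mice also held slide columns 1 and 2 and the other pair columns 4 and 3, so animal number and slide column cannot be told apart. Among the 4 mice of the shared run the median difference, knockout minus wild-type, was 0.85 (all features -0.09), with 27 of 28 genes above 0 (36.8% of features). Knockout 3 minus wild-type 3 had a median of 0.01 (all features 0.00), with 15 of 28 genes above 0 (49.7%) and a range from -0.26 to 0.48. The difference was larger in the shared run than in the other pair for 27 of 28 genes (40.9% of features). Ifi27l2a had 3.86 in the shared run and 0.26 in the other pair. Oas3 had 2.63 and 0.48, Ifit2 2.39 and 0.21, and Usp18 2.24 and -0.01. Isg15 had 1.61 and 0.14. Marked spots left 1 mouse of a genotype in the shared run for Isg15 (knockout 2), Parp9 (knockout 1), Parp14 (wild-type 2) and Ifi35 (wild-type 1). For Rsad2 they left wild-type 1 and knockout 1 alone. Oas1a had nearly equal values, 0.31 and 0.20, and Isg20 had -0.11 and 0.04.

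A fit restricted to the shared run, 2 mice of each genotype, tested 24 of the genes. In it 20 had an unadjusted p under 0.05 (5.85% of features), 23 did not overlap (15.5%) and 1, Ifit3b, rose in the knockout with an adjusted p of 0.0365 in limma (0.311%). With animal number as an additive block over all 6 arrays, 14 of 28 genes had an unadjusted p under 0.05 (3.93%) and 0 an adjusted p under 0.05 (0.172%). With slide column as the block, 19 had an unadjusted p under 0.05 (5.9%) and 6 an adjusted p under 0.05 (0.466%): Ifit2, Ifit3b, Oas2, Oas3, Usp18 and Ifi27l2a. Columns 3 and 4 hold 1 array each, so that fit draws its genotype difference from the shared run alone. With the columns in the fit, little was left to estimate each gene's own spread. The p-values of that fit therefore leaned on the spread that limma shares over all features. The test of whether the genotype difference itself depended on animal number gave 0 genes with an adjusted p under 0.05 in limma (0% of 27670 features) and 16 of 28 with an unadjusted p under 0.05 in the direction of a smaller difference in the other pair (3.73% of features). That test rests on 1 array of each genotype in the other pair. With genotype as a term, 21 of 28 genes lay higher in the other pair than in the shared run at an unadjusted p under 0.05 (3.49%), with 0 at an adjusted p under 0.05 and a median of 0.73. With arrays weighted by their overall fit, 19 genes had an unadjusted p under 0.05 for genotype (5.45%), and with normexp background correction 10 (3.51%).

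**Figure D4:**
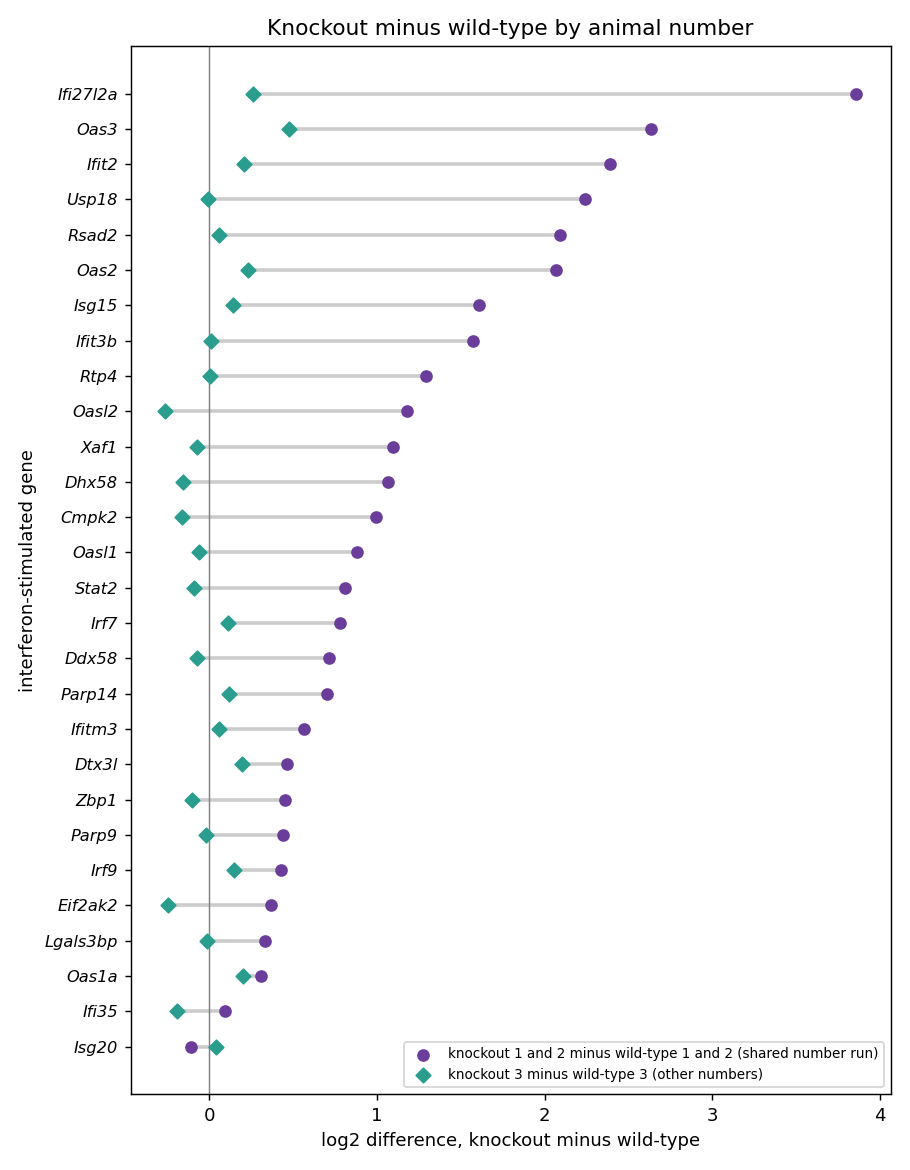
Log2 difference, knockout minus wild-type, of each tested interferon-stimulated gene. Purple circles are the mice of the shared number run, 2 per genotype except where spots were marked (Isg15, Rsad2, Parp9, Parp14 and Ifi35). Green diamonds are knockout 3 minus wild-type 3, 1 mouse each, joined to the circles by grey lines. The circles range from -0.11 to 3.86 and the diamonds from -0.26 to 0.48.

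The 9 genes left out of the test by outlier marks had the same order of arrays when the marked spots were kept, as a description. Wild-type 1 and 2 were the lowest arrays for 8 of the 9, and wild-type 3 lay above all knockout arrays for 7. Ifi44, an interferon-induced cytoplasmic protein gene, had -1.18, -2.00 and 1.50 in wild-type 1 to 3 and 1.12, 1.19 and 1.69 in knockout 1 to 3. Ifit1, which binds viral RNA caps, had 0.56, -0.17 and 2.50 in the wild-type and 2.02, 2.05 and 1.87 in the knockout mice. Bst2, the tetherin that holds budding virions at the cell surface, had 0.59, 0.06 and 1.83 and 1.36, 1.41 and 1.78. For Bst2 and Ifit1 the wild-type 3 array was the highest of all. The other 6 were Ifit3, Herc6, Oas1g, Trim30a, Samd9l and Ifih1, and the exception to the order was Samd9l, with a difference of -0.03. The median difference of the 9 was 0.69. Among tested genes, 15 further probes could be set beside the one used, and 14 had a difference of the same sign. The exception was Rsad2, whose second probe gave -0.33 from 1 wild-type and 2 knockout arrays. That wild-type array was wild-type 3, and with marked spots kept the probe gave 1.15. The second probe of Ifi35 likewise drew on wild-type 3 alone and gave -0.26, but 0.34 with marked spots kept.

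The genes upstream of the list were rarely ordered by array in this way: wild-type 1 and 2 were both the lowest arrays for 1 of 13 ligand genes, 1 of 5 receptor genes, 0 of 6 transducers and regulatory factors and 0 of 8 sensor adaptors and kinases with complete values. Over all features with complete values the share was 6.32%. Of 13 tested ligand genes of 19 listed, 5 lay above 0 (38.5% of all features), with a median of -0.18. Of these ligand genes, 2 had an unadjusted p under 0.05 in the higher direction (3.18% of all features) and 3 in the lower (7.55%). Of all listed pathway genes, 0 passed limma's adjusted threshold. Ifna1 had a log2 difference of 0.74 ± 0.16 (adjusted p 0.202 in limma), Ifna5 0.54 ± 0.15 and Ifna9 -0.48 ± 0.18. The ligand values were read from dim probes: wild-type means lay between -6.53 (Ifna2) and -2.31 (Ifna9), with -5.26 for Ifna1 and -4.96 for Ifna5. Ifna4, Ifnb1 and Ifne, not tested, were well above background on 0 arrays. All 6 receptor genes lay above 0, with a median of 0.09. Ifnar2, a chain of the type I receptor, had -2.07, -1.92 and -2.09 in wild-type 1 to 3 and -1.44, -1.58 and -1.67 in knockout 1 to 3. Its groups did not overlap, and wild-type 3 was on the wild-type side. The difference of the group means was 0.46 ± 0.12 (adjusted p 0.287 in limma). The receptor genes Ifnlr1, of the type III receptor, and Ifngr2, of the type II receptor, had 0.14 ± 0.11 and 0.10 ± 0.15. Of 8 tested JAK-STAT transducers and interferon regulatory factors of 10 listed, 4 lay above 0 with a median of -0.01 and 0 had an unadjusted p under 0.05. Irf5 had 0.19 ± 0.12, Irf8 0.17 ± 0.13 and Jak2 -0.26 ± 0.28. Of 11 tested sensor adaptors and kinases of 13 listed, 6 lay above 0 with a median of 0.04, and 0 had an unadjusted p under 0.05. In that list Tmem173, the adaptor STING, had -0.30 ± 0.14, Aim2, a DNA sensor, 0.33 ± 0.21, and Ikbke, a kinase that activates interferon regulatory factors, 0.20 ± 0.19.

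Of 8 tested negative regulators of 9 listed, 4 lay above 0 (38.5% of all features), with a median of -0.02. Of the 8, 1 had an unadjusted p under 0.05, in the lower direction (7.55% of all features). Wild-type 1 and 2 were both the lowest arrays for 3 of the 5 with complete values (6.32% of all features with complete values). The median of these 5 relative to the knockout mean was -0.37, -0.32 and 0.13 in wild-type 1 to 3. The gene with the lower call was Socs3, an inhibitor of cytokine receptor signalling, with -0.63 ± 0.22 (adjusted p 0.377 in limma). Socs1, an inhibitor of the same kind, had 0.38 ± 0.21, and Adar, the RNA editing enzyme that itself is induced by interferon, 0.49 ± 0.29. Interferon-stimulated genes outside the list behaved in part like it. Of 30 tested of 47 listed, 24 lay above 0 (38.5% of all features), with a median of 0.28. Apol9b and Ifitm1, both higher, had an unadjusted p under 0.05 (3.18% of all features). Wild-type 1 and 2 were the lowest arrays for 14 of the 22 with complete values (6.32% of all features with complete values). Apol9b, an apolipoprotein L gene whose probe may share signal with Apol9a, had 0.39, -0.37 and 2.12 in wild-type 1 to 3 and 2.03, 2.04 and 2.18 in knockout 1 to 3. Apol9a had a difference of 1.28 ± 0.55. Ifitm1, a relative of Ifitm3, had -4.32, -3.99 and -3.91 in the wild-type and -3.40, -2.67 and -3.13 in the knockout mice. Wild-type 3 stayed with the other wild-type mice for Ifitm1, and the groups did not overlap. The difference of the group means was 1.01 ± 0.21 (adjusted p 0.203 in limma).

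Genes that respond mainly to interferon-gamma were in part low on the same 2 arrays. Of 13 tested of 18 listed, 11 lay above 0 (38.5% of all features), with a median of 0.83. Ciita and Cxcl9, both higher, had an unadjusted p under 0.05 (3.18% of all features). Wild-type 1 and 2 were the lowest arrays for 6 of the 9 with complete values (6.32% of all features with complete values). Relative to the knockout mean, the median over these 9 was -0.68, -1.59 and 0.16 in wild-type 1 to 3 and -0.36, -0.04 and 0.35 in knockout 1 to 3. Ciita, the activator of MHC class II genes, had -2.90, -3.60 and -2.49 in wild-type 1 to 3 and -2.19, -1.69 and -2.15 in knockout 1 to 3. Its groups did not overlap, and the difference of the group means was 0.99 ± 0.29 (adjusted p 0.325 in limma). The chemokine gene Cxcl9 had 1.33 ± 0.52 and Ido1, a tryptophan-degrading enzyme, 1.35 ± 0.62.

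**Figure D5:**
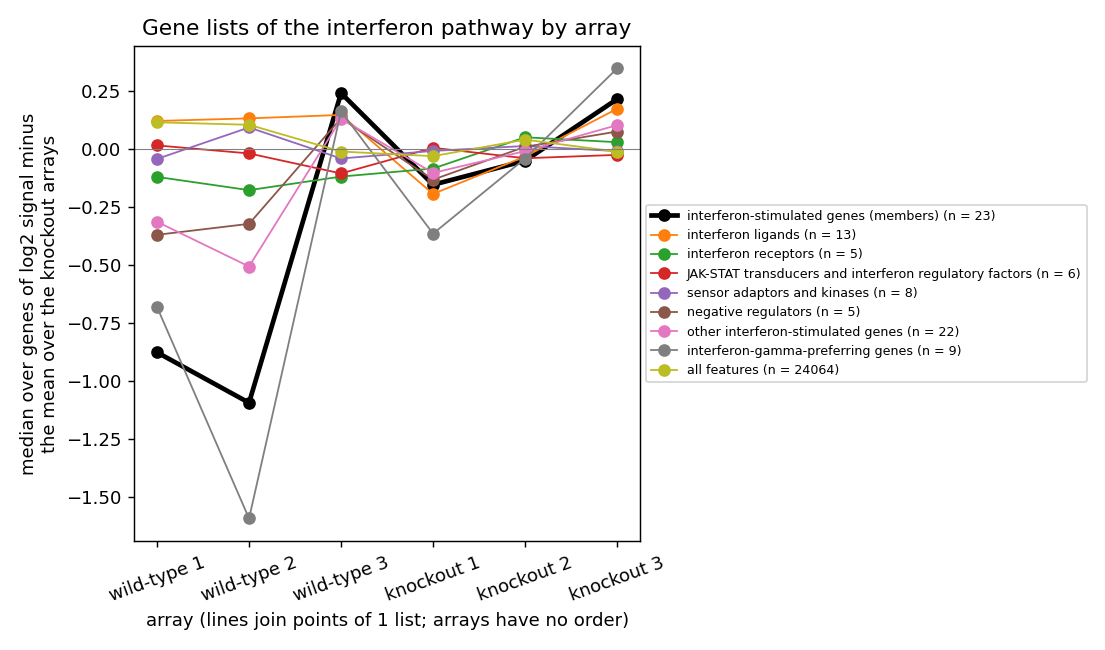
Median over genes of log2 signal minus the gene's mean over the knockout arrays (y axis) on each array (x axis), for the interferon-stimulated genes (black), 7 other gene lists and all features; lines only join the points of 1 list. The black points are at -0.88 and -1.09 in wild-type 1 and 2 and at 0.24 in wild-type 3, while the points of ligands, receptors and transducers stay between -0.19 and 0.17.

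Markers of other cell types were measured on the same arrays, as sums of linear signal relative to the 75th percentile with marked spots kept. The 12 epithelial markers summed to 137 to 154 in the wild-type and 133 to 144 in the knockout. The 9 T cell markers summed to 4.55, 3.29 and 5.44 in wild-type 1 to 3 and 3.62, 4.61 and 6.42 in knockout 1 to 3. The 5 general leukocyte markers summed to 2.72, 2.004 and 2.52 and to 2.09, 2.55 and 3.04. The 3 markers of plasmacytoid dendritic cells, a main source of type I interferon, summed to 4.43, 3.83 and 5.44 and to 4.20, 4.93 and 4.92. In these 3 lists wild-type 2 was the lowest array, as it was for the interferon-stimulated genes, while wild-type 1 was above knockout 1. The plasmacytoid sum was carried by Siglech: its 2 markers with complete unmarked values summed to 0.143, 0.133 and 0.135 in wild-type 1 to 3 and 0.158, 0.146 and 0.114 in knockout 1 to 3, with knockout 3 lowest. The 5 mast cell markers summed to 0.969, 1.16 and 1.78 in wild-type 1 to 3 and 2.28, 2.08 and 2.56 in knockout 1 to 3. This was the list of the 12 in which wild-type 1 and 2 were both the lowest arrays. The sum included Kit and Ms4a2, which were not tested. For each of the 3 tested markers, Cpa3, Mcpt1 and Mcpt2, wild-type 3 lay below every unmarked knockout array. Mast cell and plasma cell marker sums did not overlap between genotypes, the plasma cell sum being 0.166 to 0.216 in the wild-type and 0.227 to 0.319 in the knockout. Neutrophil sums did not overlap either, 10.3 to 12.0 and 9.82 to 9.90, but Csf3r carried them. Its log2 values were 3.35 to 3.58 in the wild-type and 3.28 to 3.30 in the knockout. Of the other neutrophil markers, S100a8 was well above background on 0 arrays and S100a9 on 1, and Cxcr2 overlapped between genotypes.

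Sums of the remaining lists overlapped between genotypes: macrophages and dendritic cells 1.96 to 2.06 and 1.98 to 2.17 in wild-type and knockout, B cells 3.58 to 4.32 and 3.41 to 3.63, fibroblasts 0.609 to 1.24 and 0.520 to 1.52, smooth muscle 14.9 to 18.3 and 12.3 to 18.5, and endothelium 0.437 to 0.516 and 0.385 to 0.519. The smooth muscle overlap came with Actg2: the 3 markers with complete unmarked values summed to 0.0848 to 0.0937 in the wild-type and 0.0708 to 0.0750 in the knockout, without overlap. Of the 12 defining markers, the neutrophil marker S100a8 was above background on 0 arrays, Cpa3 of mast cells and Des of smooth muscle on 4, and the other 9 on all 6. The part of these cells in the values of the interferon-stimulated genes was not tested.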

How the data were processed

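RNA from colonic epithelium of 3 wild-type and 3 miR-31 knockout mice was hybridised to 6 Agilent arrays labelled with Cy3. The deposited intensity of each spot is the processed signal of Agilent Feature Extraction, version 11.5.1.1 per the file headers and 10.7 per the submitters' processing notes. The deposited series table holds the same intensity: 99.5% of the pairs differed by under 0.01 on the log2 scale, and its column medians, 228 to 259, show a linear scale with no centring found.

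Of 62976 spots, 3671 control spots were left out. The 75th percentile over the 59305 other spots was subtracted from log2 intensity on each array. Spots with a manual, population-outlier or non-uniformity mark were dropped, and spots of 1 probe were averaged. Of 56605 probes, 33767 took a symbol from RefSeq's gene list for GRCm38.p6; the array design names another build, so no probe coordinates are given. A probe was tested when well above background on at least 3 arrays and unmarked on at least 2 arrays per group, and the brightest probe stood for a gene.

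The genotype comparison used limma's lmFit and eBayes (version 3.58.1; two-sided tests; R 4.3.3; the data.table package, version 1.17.8), over 27916 features, with Benjamini-Hochberg adjustment at 0.05. The scripts were checked on simulated data. The number of arrays limits the precision.

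The genes and lists were chosen with earlier results of these data known. Values on every array are given for the gene of each role with the smallest p, the 6 with the largest difference, the 4 with the smallest p, and those below 0 or without overlap, and of other lists up to 3 genes by p are named. Alternatives changed the background correction (normexp with offset 50 on the median spot signal, in place of the planned mean signal), scaling, filters, probe choice, blocks, variance model and arrays. A planned comparison of protein sequences between paralogs was not run.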

Additional observations from a re-analysis of the deposited data

How the results depend on the processing

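The count of genes higher at an unadjusted p under 0.05 was 1 of 28 as reported (3.18% of all features). It became 10 with normexp background correction (3.51% of features in that fit), 14 with the animal number block (3.93%) and 20 of 24 among the mice of the shared number run (5.85%). With the slide column block it was 19 (5.9%), and with array weights 19 (5.45%). It became 2 with quantile normalization, 3 with median scaling, 2 from the deposited series table (37 genes tested) and 2 with trend and robust variance. For these last fits the share of all features was not counted, so their counts have no background beside them. The count ranged from 0 to 24 when each array was left out in turn, 24 being without wild-type 3 (4.74%). The count at an adjusted p under 0.05, 0 as reported (0.147% of all features), became 1 among the mice of the shared number run (0.311%) and 6 with the slide column block (0.466%). It remained 0 when any array was left out. The count without overlap, 2 as reported (5.56% of all features), became 23 among the mice of the shared number run (15.5%) and 25 without wild-type 3 (10.1%). The median difference was 0.53 to 0.85 under the alternatives that kept all arrays or the mice of the shared number run, and 0.30 to 0.93 with 1 array left out. Ifi35 turned above 0, to 0.046 with marked spots kept, 0.051 from the series table and 0.046 with array weights, and ranged from -0.22 (without knockout 3) to 0.057 (without knockout 1) with 1 array left out. With 1 array left out, Parp14 ranged from -0.094 (without wild-type 2) to 0.87 (without wild-type 3), both from its dimmer second probe, because the brighter one then had too few unmarked wild-type arrays. Averaging a gene's probes gave 1.06 for Parp14, 0.69 for Ddx58, 0.48 for Zbp1, -0.20 for Isg20 and 1.41 for Ifi27l2a. Only unmarked probes entered the average of each array, so the arrays of a gene could be averaged over different probes. For Parp14, Ddx58 and Isg20 the averaged difference lay outside the differences of the single probes, which were 0.34 and 0.34 for Parp14. Xaf1 went to 0.39 with normexp and to 1.12 with marked spots kept, where a brighter probe replaced the tested one. No other tested gene changed direction under any alternative. Beyond the uneven probe averages, the causes of these shifts were not tested. The column block and the restriction to the mice of the shared number run leave wild-type 3 and knockout 3 without weight in the genotype difference.

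With 3 mice per genotype, a gene as variable between wild-type mice as Ifi27l2a was estimated with an SE of 1.14 log2 units. All probes of the list were well above background, but the difference of Xaf1, read from a dim probe, and the count at an unadjusted p under 0.05 moved with the background correction. The labels give no replicate numbers shared between genotypes; the slide column block sets wild-type 1 beside knockout 1 and wild-type 2 beside knockout 2.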
